A study of Arabidopsis thaliana with 10 samples.

Results

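The RNA of *fld* and *ld* seedlings was compared directly, without the wild type. These 2 mutants of *Arabidopsis thaliana* each carry a T-DNA insertion, a piece of bacterial DNA that disrupts the gene it lands in, in the Col-0 background. The *fld* line is SALK_075401 and the *ld* line is SALK_003039, so each genotype is represented by 1 insertion line. All plants were 10-day-old seedlings grown at 23°C in 16 h of light and 8 h of dark, and whole seedlings were used. The comparison used 4 of the 10 RNA-seq libraries of the study, 2 replicates of *fld* and 2 of *ld*. The other 6 libraries came from Col-0, *efl2 efl4* and *sdg26 aprf1*. Col-0 was not used. The 2 double mutants served to place single genes, in an alternative fit of all 8 mutant libraries and in the check that replicate numbers form pairs. The labels do not say whether the replicates came from separate cultures, so the p-values describe these 4 libraries only. In the main fit they rest on how far the genotype difference varied between the 2 replicate numbers, with variance shared over genes. They do not measure the spread between replicates.

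FLD and LD act in the autonomous pathway, which promotes flowering by keeping *FLC* low. FLC is a MADS box transcription factor that delays flowering by repressing the floral integrators *FT* and *SOC1*. FLD is a homolog of the histone demethylase LSD1, and LD is a homeodomain protein. The study places both in one protein complex, the AuPC, with SDG26, EFL2, EFL4 and APRF1. A direct comparison asks where loss of one component leaves RNA levels that differ from those after loss of the other.

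Between 20512664 and 20761811 reads fell on genes in the 4 libraries, and 23301 to 23333 genes had at least 1 read. Values are normalised reads, which are whole reads scaled to equal depth over the 4 libraries. They are not divided by gene length, so levels are compared between libraries and not between genes. In all, 19999 genes had a mean of at least 10 normalised reads and were tested. The replicates of a genotype differed more than the genotypes did. The median absolute log2 difference was 0.159 between the *fld* replicates and 0.168 between the *ld* replicates, but 0.0970 between *fld* and *ld* within replicate 1 and 0.101 within replicate 2. Libraries that share a replicate number shifted in the same way, with a Pearson correlation of 0.617 between the replicate differences of *fld* and *ld* across 19999 genes. The replicate number was therefore a block in the fit, and log2FC below is the log2 difference *fld* minus *ld*, so a positive value means more RNA in *fld*. As in any bulk sample, fewer cells of a type and less RNA per cell cannot be told apart.

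Each mutant had less RNA of its own mutated gene. *FLD* (AT3G10390, chromosome 3, 3229060 to 3232531, plus strand, TAIR10 coordinates) had 42.5 and 39.9 normalised reads in *fld* replicates 1 and 2, against 451 and 493 in *ld*. Every *fld* library lay far below every *ld* library, and the difference was 11.2-fold (log2FC = −3.49, SE 0.13, limma adjusted *p* = 2.89e-07). *LD* (AT4G02560, chromosome 4, 1123475 to 1128490, minus strand) had 701 and 717 normalised reads in *fld* and 386 and 430 in *ld*. It was thus lower in both *ld* libraries, but by 1.74-fold only (log2FC = 0.80, SE 0.07, adjusted *p* = 0.000486), so the *ld* line still held *LD* reads. Values are sums over the whole gene, and the reads on either side of the insertions were not analysed here. The RNA of the other 4 AuPC genes did not pass the test. *SDG26* had 280 and 330 normalised reads in *fld* and 275 and 349 in *ld*. *EFL2*, *EFL4* and *APRF1* had log2FC of −0.07, −0.00 and 0.09, with adjusted *p* of at least 0.921 for all 4.

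The genes beside the insertions did not pass the test either. *SEC8*, which lies to the left of *FLD* and encodes an exocyst subunit, had 1936 and 2046 normalised reads in *fld* and 2079 and 2261 in *ld* (log2FC = −0.12, adjusted *p* = 0.522). *AT3G10405*, which overlaps *FLD*, had a log2FC of −0.15 (adjusted *p* = 0.647). The strand setting of the read counting is not given in the sources used here. *CUL1*, which lies to the right of *LD* and encodes a cullin of ubiquitin ligases, had 4147 and 4150 normalised reads in *fld* and 4116 and 4155 in *ld* (log2FC = 0.00, interval −0.09 to 0.10). Of the genes within 20 kb, 9 of 13 around *FLD* and 11 of 17 around *LD* were tested, and 0 of them passed. An unadjusted *P* under 0.05 was seen in 1 gene around *FLD*, *SEC8*, and 1 around *LD*, *AT4G02540*. Both were higher in *ld*, a direction in which 4.48% of all tested genes had such a *P*.

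*FLC* was somewhat higher in *fld* than in *ld*, but the difference did not pass the adjusted threshold. *FLC* had 619 and 607 normalised reads in *fld* and 489 and 519 in *ld*. The groups did not overlap, and the log2FC was 0.28 with a 95% interval of 0.12 to 0.44 (limma adjusted *p* = 0.183). The close homologs of *FLC* are *FLM* and *MAF2* to *MAF5*, which also encode MADS box repressors of flowering. *MAF5* had 77.1 and 93.7 normalised reads in *fld* and 44.0 and 78.1 in *ld* (log2FC = 0.53, adjusted *p* = 0.433). *FLM* had 588 and 679 in *fld* and 553 and 575 in *ld* (log2FC = 0.16, adjusted *p* = 0.607). The replicates of *MAF5* overlapped between the genotypes, and those of *FLM* did not. *MAF2*, *MAF3* and *MAF4* had log2FC of 0.08, 0.01 and 0.11. All 6 genes of the clade had a positive log2FC, against 49.9% of all tested genes, but 0 of 6 passed the adjusted threshold and 3 of 6 had an unadjusted *P* under 0.05, where 8.04% of all tested genes had one. The median log2FC of the clade was 0.14, against −0.00 over all tested genes.

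The floral integrators had few reads in both mutants. *SOC1*, a MADS box activator of flowering, had 12.9 and 15.9 normalised reads in *fld* and 23.0 and 20.3 in *ld* (log2FC = −0.56, interval −1.28 to 0.16, adjusted *p* = 0.741). The *ld* libraries were the higher ones, and the interval includes 0. *FT*, which encodes the mobile florigen, had 2.97 and 5.98 in *fld* and 5.0 and 8.12 in *ld*, and its close homolog *TSF* had 0.99 and 1.0 in *fld* and 0 in both *ld* libraries. A count of 0 allows up to 3 reads, and both genes were under the minimum for the test, so a difference was not detectable at this depth. In a longer list of flowering-time genes, 264 of 304 were tested. Of these, *LD* passed with higher RNA in *fld* and *FLD* with higher RNA in *ld*, and 13 in each direction had an unadjusted *P* under 0.05, where all tested genes gave 3.56% and 4.48%.

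**Figure D1:**
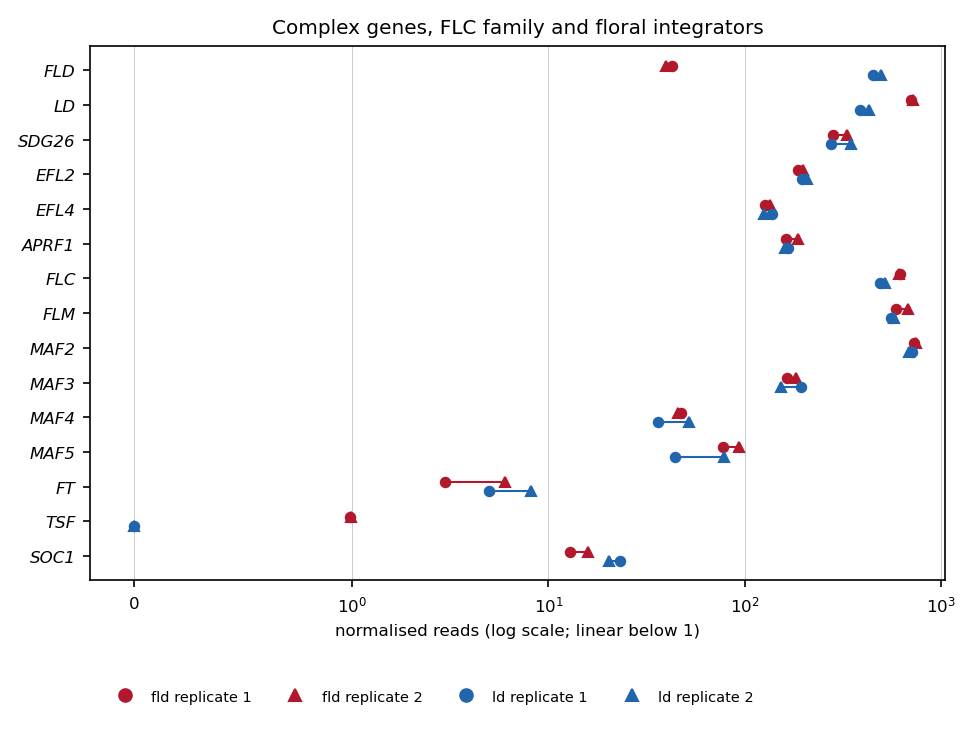
Normalised reads (log scale, linear below 1) of the AuPC genes, the *FLC* clade and the floral integrators in each library, with circles for replicate 1, triangles for replicate 2, red for *fld* and blue for *ld*, and a line joining the 2 replicates. Only *FLD* and *LD* passed the adjusted threshold, and *FLC* lay at 607 to 619 in *fld* and 489 to 519 in *ld*.

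Across all genes, 111 of 19999 differed between *fld* and *ld* at an adjusted *p* under 0.05 (0.555%). Of these, 38 were higher in *fld* (0.19% of tested genes) and 73 in *ld* (0.365%). Most differences were small, with a median absolute log2FC of 0.41 among the 111 genes and 71 of them under 0.5. The called genes were also among the more abundant ones, with a median of 1303 normalised reads against 363 over all tested genes. At the thresholds of the study, log2FC of at least 1 in size and an unadjusted *P* under 0.01, 22 genes differed (0.11%), 11 higher in *fld* and 11 in *ld* (0.055% each). Of these 22, 9 also passed the adjusted threshold.

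These counts rest on the replicate block. Without it, limma called 1 gene, *FLD* (adjusted *p* = 0.046), and the other 110 had adjusted *p* from 0.201 to 1.0, with 37 of them at an unadjusted *P* under 0.05. With the block, the count tests on recovered reads called 94 genes (edgeR) and 33 (DESeq2), of which 93 and 33 were among the 111. DESeq2 gave an adjusted *p* for 9918 genes only, and several of the 111 had none, *FLD* and *AT3G44006* included. With any 1 library left out, which requires the fit without the block, limma called 0 genes, with 129 to 320 at an unadjusted *P* under 0.05. The difference between replicates was larger than that between genotypes in 63 of the 111 genes, against 69.9% of all tested genes. The *fld* and *ld* libraries overlapped in 63 genes. The other 48 did not overlap, 24 of them higher in *fld* and 24 in *ld*, where 21.6% of all tested genes did not overlap (11.2% higher in *fld* and 10.4% higher in *ld*).

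**Figure D2:**
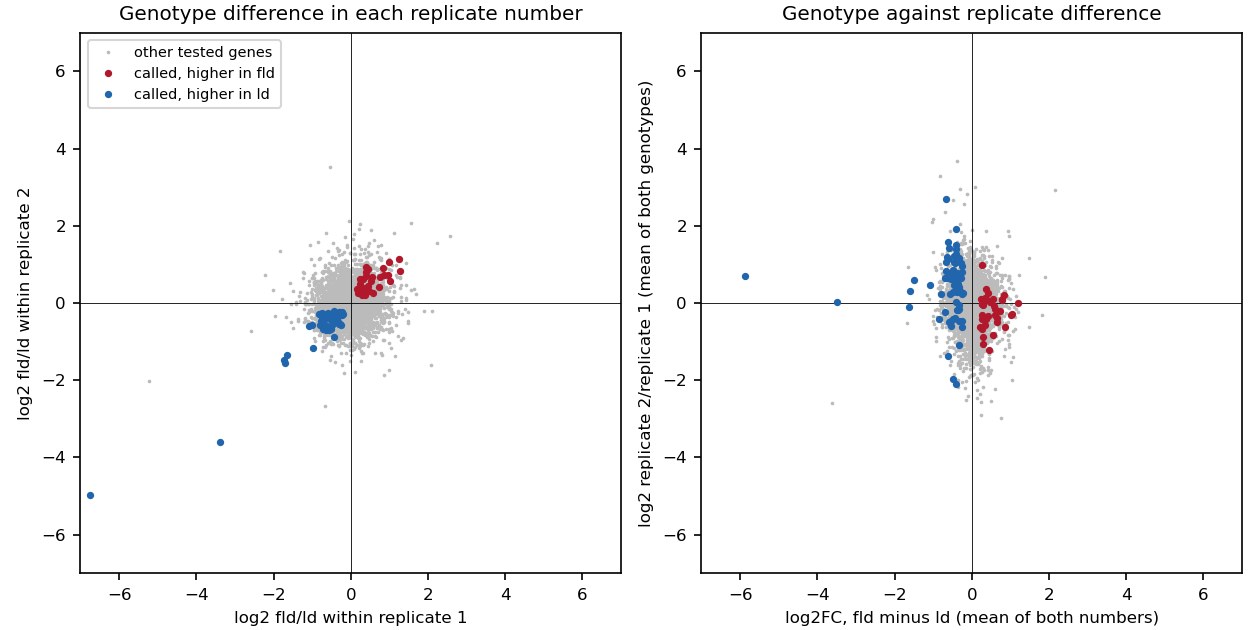
Each point is a tested gene, and red and blue points are the 38 and 73 genes called higher in *fld* and in *ld*. The left panel plots the log2 ratio *fld*/*ld* within replicate 2 against that within replicate 1, and the right panel plots the log2 ratio of replicate 2 to replicate 1 against log2FC, where many blue points lie well above 0.

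A gene with almost no reads in *fld* led the differences by size. *AT3G44006* (chromosome 3, 15796133 to 15796837), annotated as a protein of unknown function, had 0 and 1.99 normalised reads in *fld* and 106 and 93.3 in *ld*. Over both replicates these were 2 reads against 198, a ratio of 99 with an exact 95% counting interval of 27.0 to 823 (adjusted *p* = 0.000121). Counting intervals cover counting error only. Scaled over all 8 mutant libraries, *efl2 efl4* had 0 and 0.99 normalised reads and *sdg26 aprf1* had 3.02 and 0.99, so nearly all reads of the gene lay in *ld*.

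*AT5G11330* (chromosome 5, 3617138 to 3618913, minus strand), annotated as an FAD/NAD(P)-binding oxidoreductase family protein, had 440 and 431 normalised reads in *fld* and 1426 and 1258 in *ld*. Replicates lay close together, and the level in *ld* was 3.07-fold higher (log2FC = −1.62, SE 0.07, adjusted *p* = 4.8e-07). The double mutants split on this gene. On the scale of 8 libraries, *efl2 efl4* held 1457 and 1240 normalised reads, near *ld*, and *sdg26 aprf1* held 491 and 448, near *fld*.

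*PHI-1* (AT1G35140, chromosome 1, 12851983 to 12853235, plus strand), a phosphate-induced member of the EXORDIUM family, had 177 and 300 normalised reads in *fld* and 555 and 761 in *ld*. The level in *ld* was 2.81-fold higher (log2FC = −1.49, SE 0.09, adjusted *p* = 1.4e-05). *QQS*, an orphan gene named for its effect on starch content, had 12.9 and 17.9 in *fld* and 45.0 and 51.7 in *ld* (log2FC = −1.60, adjusted *p* = 0.0235). *AT5G26270* had 85.0 and 110 in *fld* and 168 and 249 in *ld* (log2FC = −1.07, adjusted *p* = 0.0033).

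Smaller differences in the same direction were seen in 6 other named genes. *TCH4*, a xyloglucan endotransglucosylase/hydrolase that remodels cell walls, had 1810 and 2459 normalised reads in *fld* and 3597 and 3667 in *ld* (log2FC = −0.78, adjusted *p* = 0.000666). *MBP1*, which encodes a myrosinase-binding protein, had 566 and 510 in *fld* and 1210 and 765 in *ld* (log2FC = −0.84, adjusted *p* = 0.00303). *PUP18*, a member of the purine permease family, had 1291 and 1196 in *fld* and 2251 and 1765 in *ld* (log2FC = −0.68, adjusted *p* = 0.000486). In all 3 genes the lowest *ld* library lay above the highest *fld* library, which the rule that picked these named genes required. *DREB26*, an AP2/ERF transcription factor, had 362 and 575 normalised reads in *fld* and 594 and 919 in *ld* (log2FC = −0.69, adjusted *p* = 0.000836). *NAS2*, a nicotianamine synthase that makes a metal chelator, had 214 and 164 in *fld* and 350 and 231 in *ld* (log2FC = −0.60, adjusted *p* = 0.032). *TPS8*, of the trehalose-6-phosphate synthase family, had 751 and 1018 in *fld* and 1267 and 1317 in *ld* (log2FC = −0.56, adjusted *p* = 0.011). Some of these values moved when 1 library was left out, in a fit without the block that sets a lone library against both replicates of the other genotype. Without *fld* replicate 1 the log2FC was −0.36 for *DREB26* and −0.35 for *TPS8*, and without *ld* replicate 1 it was −0.51 for *MBP1* and −0.30 for *NAS2*. Within replicates 1 and 2, which keep the pairs, the log2 difference was −0.71 and −0.68 for *DREB26*, −0.75 and −0.37 for *TPS8*, −1.09 and −0.58 for *MBP1* and −0.71 and −0.49 for *NAS2*.

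Among the genes higher in *fld*, *ESP* had the largest log2FC of those that passed. *ESP* (AT1G54040, chromosome 1, 20170715 to 20173949, minus strand) encodes the epithiospecifier protein, which steers the breakdown of glucosinolates towards nitriles in place of isothiocyanates. It had 2086 and 2023 normalised reads in *fld* and 879 and 921 in *ld*, a 2.28-fold difference with closely matching replicates (log2FC = 1.19, SE 0.06, adjusted *p* = 1.34e-06). *BAM5*, the major β-amylase outside the chloroplast, had 2428 and 2002 normalised reads in *fld* and 1226 and 954 in *ld* (log2FC = 1.03, SE 0.05, adjusted *p* = 2.36e-06). *TLL1*, annotated as a lipase, had 9235 and 6228 in *fld* and 5191 and 3313 in *ld* (log2FC = 0.87, SE 0.04, adjusted *p* = 1.78e-06). *TLL1* differed by a near-constant ratio within each replicate number although the replicates themselves differed, and its log2FC was 0.55 without *ld* replicate 2 in the fit without the block, against 0.83 and 0.91 within replicates 1 and 2. *AT2G27060*, a leucine-rich repeat receptor-like kinase family protein, had 797 and 561 in *fld* and 330 and 316 in *ld* (log2FC = 1.05, adjusted *p* = 0.000578).

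*PRB1*, which encodes a basic pathogenesis-related protein of the PR1 family, had 125 and 131 normalised reads in *fld* and 63.0 and 79.1 in *ld* (log2FC = 0.84, adjusted *p* = 0.0406). *PDF1.3*, a plant defensin, had 369 and 312 in *fld* and 216 and 194 in *ld* (log2FC = 0.73, adjusted *p* = 0.00662). *PCC1*, named for its control by pathogens and the circadian clock, had 1596 and 1326 in *fld* and 1180 and 722 in *ld* (log2FC = 0.66, adjusted *p* = 0.006). The groups did not overlap in these genes, which were picked among calls without overlap. Only 61.8% of the windows of 50 bases in the exons of *PCC1* occur once in the genome, counted on both strands. Its reads may therefore be split with near-identical sequences, and the share was 94.6% for *PDF1.3*. *JAL23*, a jacalin-related lectin, had 366 and 338 normalised reads in *fld* and 278 and 195 in *ld* (log2FC = 0.59, adjusted *p* = 0.0414). *AT5G03350*, of the legume lectin family, had 1028 and 944 in *fld* and 784 and 491 in *ld* (log2FC = 0.67, adjusted *p* = 0.0165). The edgeR test with the block left *JAL23* and *PRB1* short of the threshold, at adjusted *p* of 0.067 and 0.053. DESeq2 with the block did not call *AT5G03350* (adjusted *p* = 0.999979) but called *PCC1* (adjusted *p* = 0.00204). It gave no adjusted *p* for *JAL23*, *PRB1* and *PDF1.3*. In the fits without the block, leaving out *ld* replicate 2 gave a log2FC of 0.30 for *PCC1*, 0.33 for *AT5G03350* and 0.34 for *JAL23*, and leaving out *ld* replicate 1 gave 1.01 for *PCC1* and 1.0 for *AT5G03350*. Within replicates 1 and 2 the log2 difference was 0.44 and 0.88 for *PCC1*, 0.39 and 0.94 for *AT5G03350* and 0.39 and 0.79 for *JAL23*.

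*AGL87*, which encodes a MADS box protein, had 314 and 295 normalised reads in *fld* and 214 and 186 in *ld* (log2FC = 0.61, adjusted *p* = 0.0225). *AT4G22517*, of the lipid-transfer protein family, had 308 and 278 in *fld* and 152 and 188 in *ld* (log2FC = 0.79, adjusted *p* = 0.0165). Neither gene overlapped between the genotypes, again by the rule that picked them.

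**Figure D3:**
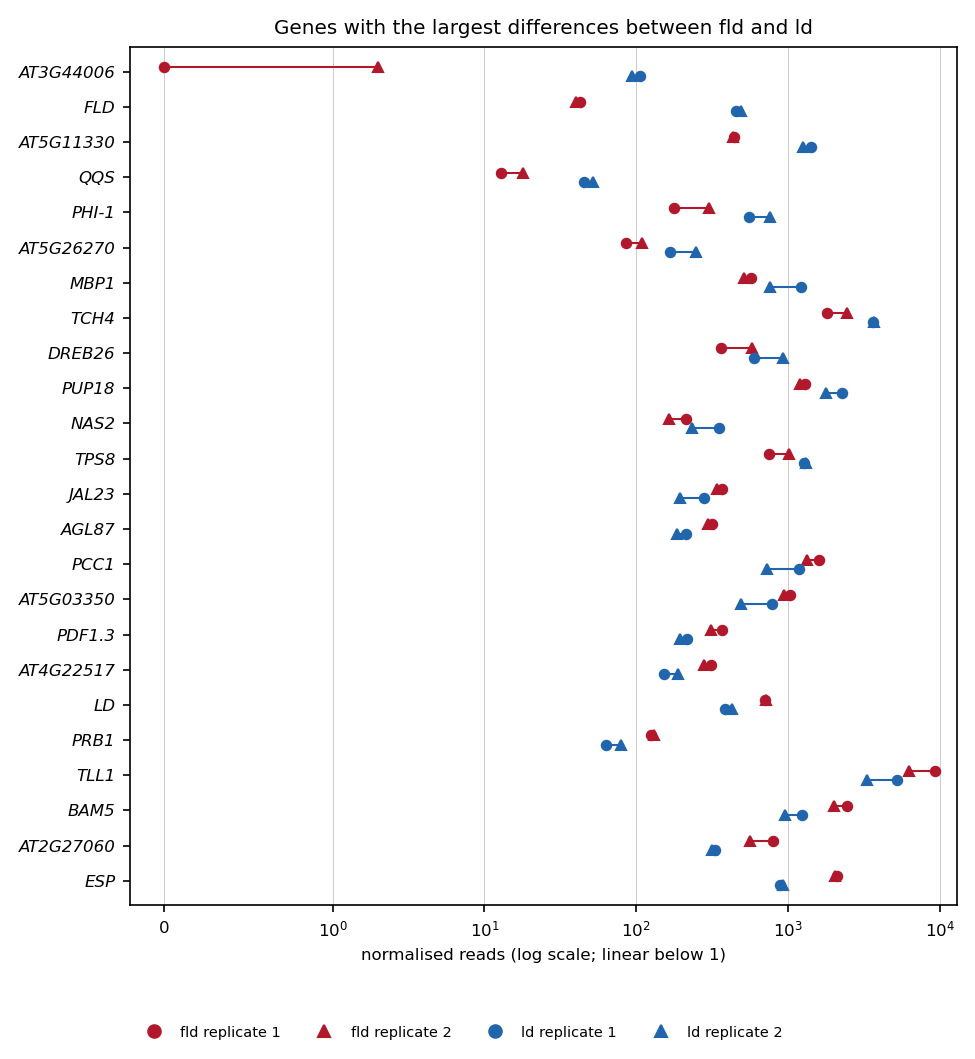
Normalised reads (log scale, linear below 1) in each library for the 12 genes with the highest and the 12 with the lowest log2FC among those that passed the adjusted threshold without overlap, with circles for replicate 1, triangles for replicate 2, red for *fld* and blue for *ld*. *AT3G44006* lay at 0 and 1.99 in *fld* and at 93.3 and 106 in *ld*, and *ESP* at 2023 and 2086 in *fld* and at 879 and 921 in *ld*.

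When all 8 mutant libraries were fitted together with the replicate block, 7 genes differed between *fld* and *ld*, and all 7 were among the 111. They were *FLD*, *LD*, *AT3G44006*, *AT5G11330*, *ESP*, *TLL1* and *AT2G27060*. For *AT2G27060*, *efl2 efl4* held 629 and 560 normalised reads and *sdg26 aprf1* 750 and 556, so *ld* was the low mutant. *ESP* had 950 and 767 in *efl2 efl4*, near *ld*, but 6093 and 4409 in *sdg26 aprf1*, above *fld*. For *TLL1*, *efl2 efl4* held 8318 and 5569 and *sdg26 aprf1* 5935 and 4242, between the levels of *fld* and *ld* or overlapping them. *BAM5* did not pass in the fit of 8 libraries (adjusted *p* = 0.767), where its replicates in *sdg26 aprf1* lay at 3316 and 6724. *FLC* was lower in the double mutants than in *fld* and *ld*, where *efl2 efl4* held 370 and 387 normalised reads and *sdg26 aprf1* 166 and 143. These placements were not tested.

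**Figure D4:**
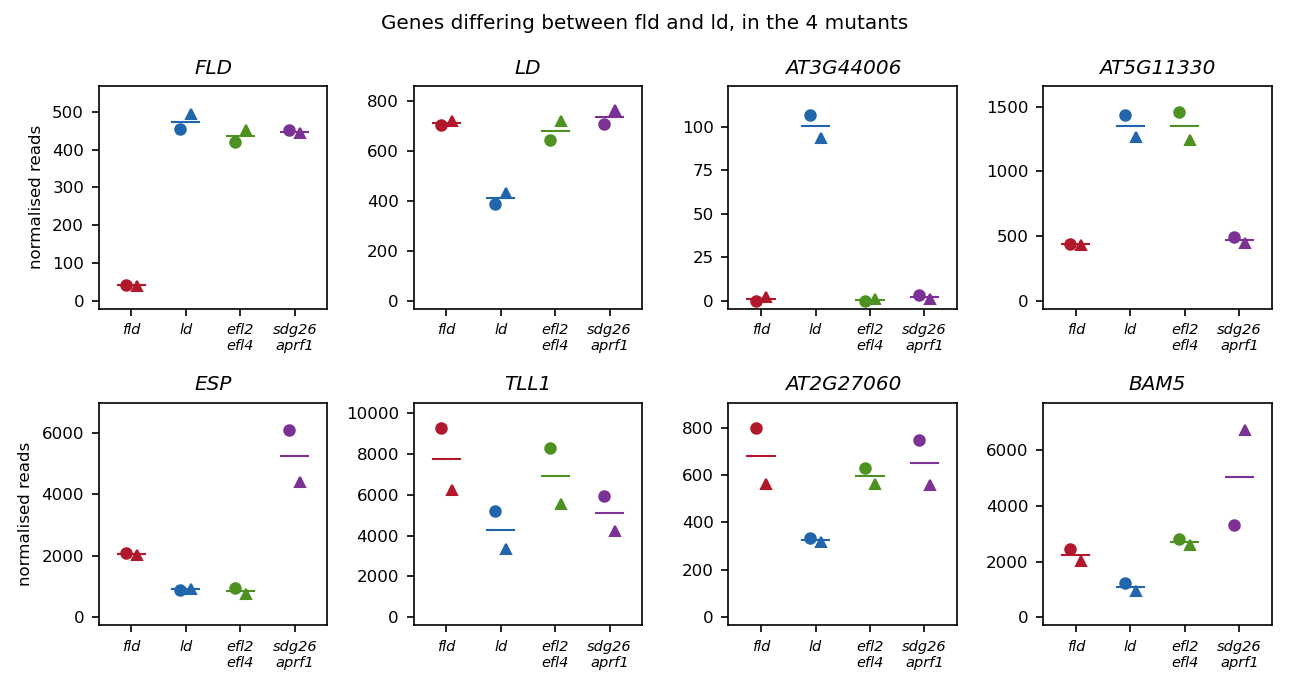
Normalised reads, scaled over 8 libraries, in the 4 mutants for 8 genes, with circles for replicate 1, triangles for replicate 2 and a bar for the mean. *AT3G44006* was near 0 except in *ld*, *AT5G11330* lay at 432 to 491 in *fld* and *sdg26 aprf1* and at 1240 to 1457 in *ld* and *efl2 efl4*, and *AT2G27060* was low in *ld*.

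Many of the 73 genes higher in *ld* also differed strongly between replicates. The replicate difference was past 2-fold in 22 of them (30.1%), against 2 of the 38 genes higher in *fld* and 1.95% of all tested genes, and 54 of the 73 were higher in replicate 2, against 13 of the 38. *LRX3*, an extensin-like protein of the cell wall, had 2518 and 5555 normalised reads in *fld* and 3768 and 8870 in *ld* (log2FC = −0.63, adjusted *p* = 5.15e-05). *DIN10*, a raffinose synthase family member induced in the dark, had 2686 and 6799 in *fld* and 3846 and 10804 in *ld* (log2FC = −0.59, adjusted *p* = 0.000138). *AT1G72416* had 326 and 2076 in *fld* and 508 and 3351 in *ld* (log2FC = −0.66, adjusted *p* = 0.000325). In these genes *ld* was above *fld* within each replicate number, while *fld* replicate 2 was above *ld* replicate 1. The opposite order of replicates was seen in *DIC2*, a mitochondrial dicarboxylate carrier, with 1271 and 321 in *fld* and 1735 and 456 in *ld* (log2FC = −0.48, adjusted *p* = 0.00737). What differed between the replicate numbers is not given in the sources used here, and its part in these differences was not tested.

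Some families had several members among the genes higher in *ld*. They were picked after their values were seen, and no test was made of them. Over all tested genes, 0.365% were called higher in *ld* and 50.1% had a negative log2FC. In the EXORDIUM family, whose members are linked to growth and sugar status, 4 of 7 tested genes passed, namely *PHI-1*, *EXO*, *EXL3* and *EXL5*, and all 7 had a negative log2FC. *EXO* had 3916 and 7986 normalised reads in *fld* and 6848 and 9647 in *ld* (log2FC = −0.54, adjusted *p* = 0.0226). *EXL3* had 2142 and 4835 in *fld* and 2708 and 6057 in *ld* (log2FC = −0.33, adjusted *p* = 0.00673). Of the 5 BTB and TAZ domain proteins tested, *BT1* and *BT4* passed and all 5 were negative. *BT4* had 2282 and 4733 in *fld* and 3085 and 6302 in *ld* (log2FC = −0.42, adjusted *p* = 0.001). Of 32 arabinogalactan proteins of the cell surface, *AGP1*, *AGP15* and *AGP17* passed, and 24 of the 32 were negative. Of 28 xyloglucan endotransglucosylase/hydrolases, *TCH4* and *XTR6* passed, with 18 negative and 10 positive. Of 5 members of the raffinose synthase family, *DIN10* and *SIP2* passed, with 3 negative and 2 positive. The touch-induced genes for calmodulin-like proteins, *TCH2* and *TCH3*, had log2FC of −0.33 and −0.38 (adjusted *p* = 0.0432 and 0.011). Their family was not counted as a whole. *AT2G41090*, which ends just before *TCH3* on chromosome 2, was called in the other direction. It had 6334 and 6358 in *fld* and 5360 and 5203 in *ld* (log2FC = 0.26, adjusted *p* = 0.0195). All these calls are those of limma with the block. With the block, edgeR left *TCH2* and *AGP15* short of the threshold (adjusted *p* = 0.0584 and 0.0677). DESeq2 left *EXO*, *EXL3*, *BT1*, *AGP1*, *AGP15*, *AGP17*, *SIP2*, *TCH2* and *AT2G41090* short, at adjusted *p* from 0.0554 (*EXL3*) to 0.999979 (*EXO*). It gave no adjusted *p* for *XTR6*.

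Further genes of metabolism among the 111 are given as examples, mostly of those higher in *fld*. *GBSS1*, the granule-bound starch synthase, had 1672 and 1227 normalised reads in *fld* and 1334 and 979 in *ld* (log2FC = 0.33, adjusted *p* = 0.0247). *APL3*, a large subunit of ADP-glucose pyrophosphorylase, had 2835 and 1574 in *fld* and 2348 and 1252 in *ld* (log2FC = 0.30, adjusted *p* = 0.0247). Both were higher in *fld* within each replicate number, as was *TPS5* (log2FC = 0.29, adjusted *p* = 0.0381), whereas *TPS8* of the same family was higher in *ld*. *ICL*, the isocitrate lyase of the glyoxylate cycle, had 452 and 388 in *fld* and 273 and 291 in *ld* (log2FC = 0.57, adjusted *p* = 0.0278). *KAT5*, a thiolase of fatty acid breakdown, had 1867 and 1067 in *fld* and 1300 and 716 in *ld* (log2FC = 0.55, adjusted *p* = 0.000994). *CAT3*, an abundant catalase, had 50025 and 45682 in *fld* and 38555 and 39547 in *ld* (log2FC = 0.29, adjusted *p* = 0.0183). The libraries overlapped between the genotypes in *GBSS1*, *APL3*, *TPS5* and *KAT5*, and did not in *ICL* and *CAT3*. These calls are again those of limma with the block, which called 38 genes higher in *fld*. With the block, edgeR called 28 in that direction and DESeq2 10. These 6 genes were named after their values were seen.

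Stress and defence lists gave single calls. In the salicylic acid defence list, 1 of 19 tested genes passed, *ACD6*, a regulator of cell death (0.19% of all tested genes were called higher in *fld*), with 2874 and 6010 normalised reads in *fld* and 2538 and 4678 in *ld* (log2FC = 0.27, adjusted *p* = 0.0485). With the block, the adjusted *p* of *ACD6* was 0.0661 in edgeR and 0.556 in DESeq2. *PR1*, the marker of salicylic acid signalling, had 22.7 and 28.9 in *fld* and 4.0 and 9.13 in *ld* (log2FC = 1.90, limma adjusted *p* = 0.0638), and so passed the 2-fold rule only. *PR2*, a β-1,3-glucanase, had 125 and 156 in *fld* and 93.1 and 67.0 in *ld* (adjusted *p* = 0.111). *PR1* and *PR2* were named after their values were seen. Of the 19 genes, 13 had a positive log2FC and 6 a negative one, with a median of 0.05. *CBP60G* had the smallest *P* among those higher in *ld*, with 423 and 151 in *fld* and 533 and 170 in *ld* (log2FC = −0.26, limma adjusted *p* = 0.475). Of 14 rapid stress-response transcription factors, *WRKY18* passed with higher RNA in *ld*, at 327 and 1098 in *fld* and 559 and 1505 in *ld* (log2FC = −0.61, adjusted *p* = 0.00576). Of 5 heat shock genes, the chaperone gene *HSP90.1* passed, at 511 and 1227 in *fld* and 617 and 1790 in *ld* (log2FC = −0.41, limma adjusted *p* = 0.032, but 0.399 in DESeq2 with the block). Over all tested genes, 0.365% were called higher in *ld*. The libraries of these 3 called genes overlapped between the genotypes, and the sign of each turned when 1 library was left out and the fit had no block. The log2FC was then −0.26 for *ACD6* without *fld* replicate 2, 0.26 for *WRKY18* without *fld* replicate 1 and 0.36 for *HSP90.1* without *ld* replicate 2. Within replicates 1 and 2 the sign stayed, at 0.18 and 0.36 for *ACD6*, −0.77 and −0.45 for *WRKY18* and −0.27 and −0.54 for *HSP90.1*.

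Some lists leaned in one direction without a call. Of 17 phenylpropanoid and anthocyanin genes, 0 passed, 15 had a positive log2FC and 8 had an unadjusted *P* under 0.05, all higher in *fld*, against 3.56% of all tested genes in that direction. The median log2FC was 0.13. The *fld* and *ld* libraries overlapped in all 17 genes, where 21.6% of all tested genes did not overlap. The median absolute replicate difference of the list was 0.87, against 0.16 over all tested genes. *TT19*, a glutathione transferase needed for anthocyanin storage, had the smallest *P*, with 1596 and 1125 normalised reads in *fld* and 1403 and 811 in *ld* (adjusted *p* = 0.0796). The transcription factor *PAP1* had 503 and 83.7 in *fld* and 345 and 60.9 in *ld* (adjusted *p* = 0.116). Replicate 1 was the higher one in both genes, and *PAP1* was named after its values were seen. Of 7 hypoxia genes, 4 had an unadjusted *P* under 0.05, all higher in *fld*, and *ADH1*, the alcohol dehydrogenase, had 2717 and 2673 in *fld* and 2170 and 2387 in *ld* (adjusted *p* = 0.0886). Of 11 sulfate genes, 4 had an unadjusted *P* under 0.05, again all higher in *fld*. All 11 sulfate genes overlapped between the genotypes, and their median absolute replicate difference was 1.09. In the glucosinolate list, 23 of 26 genes were positive and *ESP* passed.

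Genes that mark tissues differed little. Of 24 photosystem, antenna and Rubisco genes, 22 had a negative log2FC and 4 had an unadjusted *P* under 0.05, all higher in *ld* (4.48% of all tested genes), but 0 passed. Their median log2FC was −0.06, and the median was 0.02 within replicate 1 and −0.14 within replicate 2. Their summed level was 1092430 and 1099960 normalised reads in *fld* and 1109350 and 1215120 in *ld*, so *ld* replicate 2 was the highest. Of 10 root tissue markers 0 passed, with sums of 45935 and 45950 in *fld* and 45944 and 51517 in *ld*. Most of each sum came from 1 marker, *PYK10*, at 42539 and 42699 in *fld* and 42531 and 48226 in *ld*. Of 8 mitotic genes 0 passed, with sums of 2244 and 2204 in *fld* and 2336 and 2187 in *ld*. *GA2OX2*, which inactivates gibberellin, had 131 and 205 in *fld* and 252 and 269 in *ld*, short of the threshold (log2FC = −0.66, adjusted *p* = 0.0638). The lists of other autonomous pathway genes (12 tested), *FLC* activators (28), Polycomb and vernalization repressors (11), photoperiod and clock genes (21) and DNA methylation and small RNA genes (13) had medians between −0.01 and 0.02, and 0 genes of theirs passed.

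**Figure D5:**
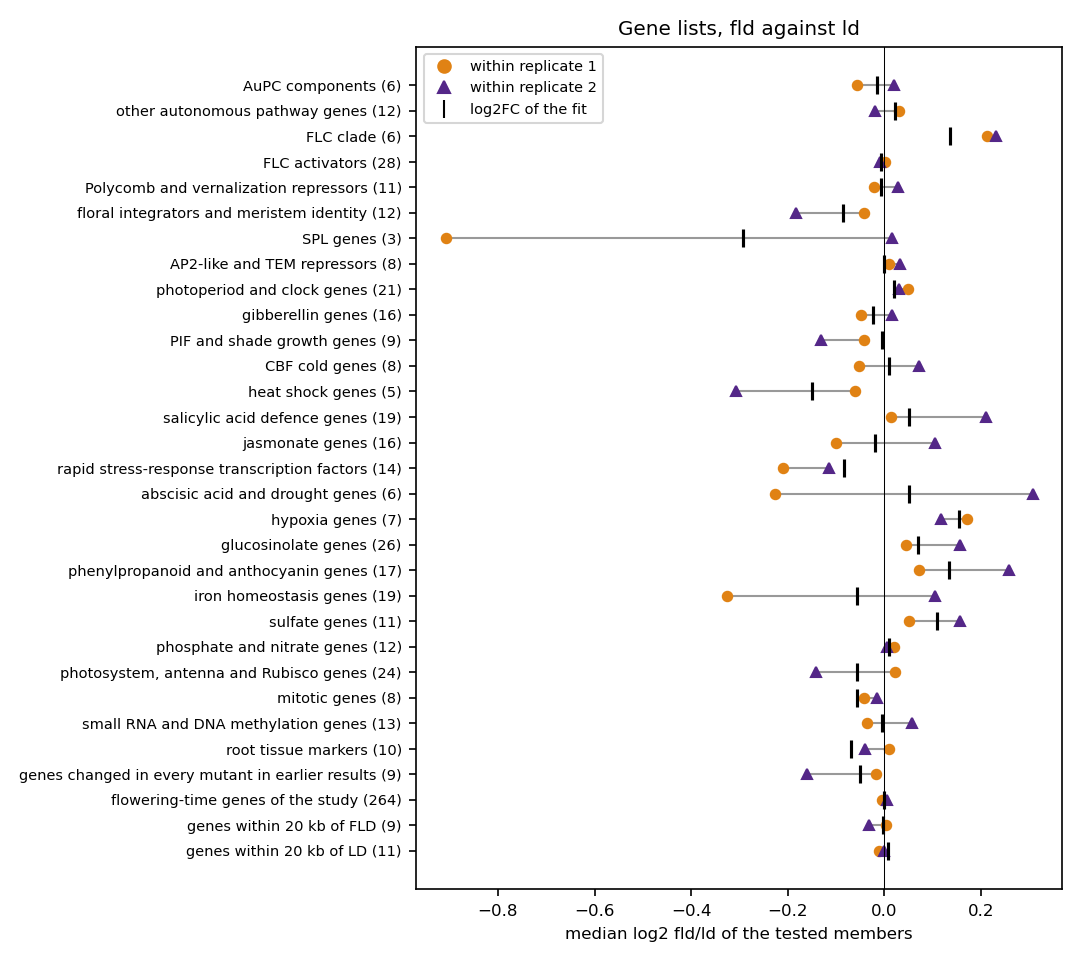
Median log2 ratio *fld*/*ld* of the tested members of each list (number tested in parentheses), within replicate 1 (circles), within replicate 2 (triangles) and in the fit (bars). The *FLC* clade lay above 0 in both replicate numbers, with a median log2FC of 0.14, and the photosystem list lay on opposite sides of 0.

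The sequences before the genes were read from RefSeq's TAIR10.1 assembly for 250 bases upstream of each annotated start. The motifs were chosen after the calls were seen, were searched on both strands, and a match is a description only. The 2 forms of the W-box, the core bound by WRKY factors, differ in the last letter only. The letters ACGCGT, the core bound by calmodulin-binding CAMTA factors, stood before 8 of the 73 genes higher in *ld* (11%) and 2 of the 38 higher in *fld* (5.26%), against 351 of 19998 tested genes with a sequence (1.76%). Among genes with an unadjusted *P* under 0.05, they stood before 33 of 896 higher in *ld* (3.68%) and 10 of 712 higher in *fld* (1.4%). They stood before 3.08% of the 390 genes whose replicates differed past 2-fold. The G-box (letters CACGTG) stood before 7.26% of all genes, 10.5% of those higher in *fld* and 6.85% of those higher in *ld*. The W-box ending in C (letters TTGACC) gave 12.1%, 10.5% and 9.59% in the same order. The W-box ending in T (letters TTGACT) gave 18.8%, 15.8% and 20.5%, and the evening element (letters AAATATCT) gave 4.96%, 5.26% and 4.11%.

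The stretches around ACGCGT are shown for 7 genes higher in *ld* and 2 higher in *fld*, because they are the matches behind that share. The 8th match in *ld*, before *FLD*, lies inside another annotated gene. Each is written 5′ to 3′ on the strand of the gene, with the matched letters in capitals.
EXLA1 (chr3:16896009-16896058, plus, 135 bases before the start): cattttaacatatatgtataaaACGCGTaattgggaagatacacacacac
AT5G41740 (chr5:16688550-16688599, plus, 54 bases): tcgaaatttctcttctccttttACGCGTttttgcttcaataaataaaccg
DIC2 (chr4:12686297-12686346, plus, 140 bases): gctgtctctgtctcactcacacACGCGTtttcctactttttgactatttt
AT4G34150 (chr4:16354799-16354848, plus, 36 bases): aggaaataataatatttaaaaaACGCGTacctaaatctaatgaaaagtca
AGP1 (chr5:25721650-25721718, plus, 61 and 42 bases): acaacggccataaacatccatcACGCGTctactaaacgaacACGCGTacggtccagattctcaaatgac
TCH2 (chr5:14999656-14999724, minus, 83 and 64 bases): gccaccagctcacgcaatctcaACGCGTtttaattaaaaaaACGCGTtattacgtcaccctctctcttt
SHV3 (chr4:13460132-13460181, minus, 54 bases): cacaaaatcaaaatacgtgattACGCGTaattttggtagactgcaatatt
AGL87, higher in *fld* (chr1:7981642-7981691, plus, 58 bases): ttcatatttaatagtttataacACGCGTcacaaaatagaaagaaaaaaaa
AT5G03350, higher in *fld* (chr5:816875-816920, minus, 232 bases): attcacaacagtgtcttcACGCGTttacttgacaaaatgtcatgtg

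Of these genes, *AGP1* and *TCH2* hold the letters at 2 places. *EXLA1*, an expansin-like gene, had 305 and 686 normalised reads in *fld* and 469 and 1032 in *ld* (log2FC = −0.60, adjusted *p* = 0.00276). *TCH2* had 1631 and 1272 in *fld* and 2221 and 1477 in *ld*, and *AGP1* 1352 and 1291 in *fld* and 1865 and 1546 in *ld*. The groups overlapped in *EXLA1* and *TCH2* and did not in *AGP1*. *AT5G41740* had 525 and 418 in *fld* and 829 and 553 in *ld* (log2FC = −0.53, adjusted *p* = 0.0145), without overlap.

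The whole 250 bases are shown for *PHI-1*, higher in *ld*, and *ESP*, higher in *fld*, which were called with large differences in opposite directions and have named products. Capitals mark the W-box ending in T on either strand.
PHI-1 (chr1:12851733-12851982, plus, 182 bases before the start): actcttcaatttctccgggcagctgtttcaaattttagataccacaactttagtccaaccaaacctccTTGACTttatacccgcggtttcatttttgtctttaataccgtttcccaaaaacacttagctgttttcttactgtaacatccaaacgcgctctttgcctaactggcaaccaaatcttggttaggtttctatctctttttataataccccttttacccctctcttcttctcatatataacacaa
ESP (chr1:20173950-20174199, minus, 203 bases before the start): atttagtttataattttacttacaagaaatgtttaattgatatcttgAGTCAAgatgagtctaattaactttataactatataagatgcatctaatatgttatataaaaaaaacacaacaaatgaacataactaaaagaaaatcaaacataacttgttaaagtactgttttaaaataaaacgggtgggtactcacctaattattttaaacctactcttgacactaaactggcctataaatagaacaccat
Both carry this W-box once, and neither holds any other motif of the search.

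Of the 22 genes past the 2-fold rule, 13 did not pass the adjusted threshold, and most of these had few reads. *CLE21*, a gene for a signalling peptide, had 33.6 and 38.9 normalised reads in *fld* and 19.0 and 13.2 in *ld* (log2FC = 1.14, adjusted *p* = 0.188). *RLP38*, a receptor-like protein, had 37.6 and 51.8 in *fld* and 26.0 and 13.2 in *ld* (log2FC = 1.21, adjusted *p* = 0.218). *TPS04*, a terpene synthase, had 4.94 and 32.9 in *fld* and 0 and 9.13 in *ld*, so its libraries overlapped (log2FC = 2.16, adjusted *p* = 0.158). *AT1G05250*, annotated as a peroxidase, had 0.99 and 0 in *fld* and 73.0 and 3.04 in *ld*, so that *ld* replicate 1 alone was high (adjusted *p* = 0.0792). These 4 genes were named after their values were seen.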

How the data were processed

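RNA was extracted with TRIzol and sequenced on BGISEQ-500. The authors aligned reads to TAIR10 with HISAT2 (v2.1.0), counted those on exons with featureCounts (v1.6.4) and normalised them with edgeR. The annotation and strand setting are not given in the sources used here. The deposited signal is normalised reads per gene, 1 table per mutant with Col-0. Columns of the authors' own fold changes and p-values were not used. All 32548 gene IDs matched RefSeq's TAIR10.1 annotation.

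The tables were normalised separately, so whole reads were recovered by dividing each column by the size of 1 read and rounding. The smallest positive value did not give that size in 3 of the 4 columns, where genes without reads hold values under 0.5, so a size between 0.9965 and 1.0161 was fitted. Of the values, 99.0% to 100% lay within 0.1 of a whole number. The 4 libraries were scaled together by TMM (edgeR 4.0.16), and log2(normalised reads + 1) was tested by limma (3.58.1, trend, two-sided, Benjamini-Hochberg over 19999 genes) with genotype and replicate number as terms, which left 1 residual degree of freedom and 10.3 prior ones. The correlation of replicate differences between genotypes was 0.424 to 0.617 over the 6 pairs of mutants, and the numbers were therefore taken as pairs. The count tests of edgeR (quasi-likelihood) and DESeq2 (1.42.0) on recovered reads, other scalings, pseudocounts and filters, 8 mutant libraries and leaving out each library were alternatives. Fits were tested on simulated data in which both genotypes had the same replicate shift. That test therefore cannot show whether the replicate numbers form pairs in these libraries. The libraries held 20512664 to 20761811 reads on genes, which limits the precision of genes with few reads.

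The members, gene lists and tests were chosen with earlier results of these data known. Named genes were the AuPC and *FLC* clade genes and floral integrators, the 12 highest and 12 lowest log2FC among calls without overlap and with a mean of at least 20 in the higher group, the smallest *P* of each list in each direction (given in the text for part of the lists), and genes next to *FLD* and *LD*. Others are said to be named after their values were seen, as are those given as examples of overlapping calls, families and motifs. R 4.3.3 and Python 3.11.15 were used, with pandas 2.3.3, numpy 2.4.6, scipy 1.17.1 and matplotlib 3.10.9.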

Additional observations from a re-analysis of the deposited data

How the results depend on the processing

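The 111 calls depended on the replicate block and on the filter on low values. Without the block limma called 1 gene and edgeR's quasi-likelihood test 1, against 94 with edgeR and the block and 33 with DESeq2 and the block, where 9918 genes had an adjusted *p*. Limma called 0 genes without the filter on low values, when 24912 genes were tested and 1323 had an unadjusted *P* under 0.05, and 7 with all 8 mutant libraries in the fit. DESeq2 size factors, upper-quartile factors, the deposited normalised reads, pseudocounts of 0.5 and 5 and a minimum mean of 20 gave 95 to 128 calls. The count by the 2-fold rule was 22, and it was 11 without the block in limma and in edgeR, 10 with DESeq2 and 15 with a minimum mean of 20, and between 17 and 28 otherwise. With 1 library left out and no block the calls were 0 to 0 and the 2-fold count 13 to 26, and the library left alone was assumed to vary like the other group. Of 91 named genes with a fit, 27 passed the adjusted threshold. *EFL4* turned sign with upper-quartile factors (log2FC = 0.0037) and with the deposited normalised reads (0.0072). With 1 library left out, which breaks the pairs of replicate numbers, 3 of the 27 and 32 of the other named genes turned sign, over these ranges of log2FC: SDG26 (−0.20 to 0.14), EFL4 (−0.071 to 0.064), APRF1 (−0.0069 to 0.19), MAF3 (−0.15 to 0.17), MAF4 (−0.15 to 0.36), BFT (−0.24 to 0.93), SVP (−0.36 to 0.056), SNZ (−0.084 to 0.51), TEM2 (−0.75 to 0.63), LNK1 (−0.58 to 1.42), LUX (−0.24 to 0.0088), PIF4 (−0.41 to 0.82), ZAT12 (−1.31 to 0.026), HSP18.2 (−0.034 to 0.36), HSP90.1 (−1.18 to 0.36), ACD6 (−0.26 to 0.80), CBP60G (−1.08 to 0.56), ERF104 (−0.31 to 0.70), WRKY18 (−1.48 to 0.26), NCED3 (−0.90 to 0.50), HRA1 (−0.22 to 0.12), FMOGS-OX1 (−0.60 to 0.24), TT19 (−0.066 to 0.72), MYB12 (−0.65 to 0.52), FER1 (−0.24 to 0.66), IRT1 (−0.62 to 0.090), SDI1 (−0.85 to 1.43), SULTR1;2 (−0.19 to 0.048), SPX1 (−0.63 to 1.19), NIA2 (−0.28 to 0.14), ROS1 (−0.20 to 0.076), PYK10 (−0.18 to 0.0030), GSTF2 (−0.17 to 0.36), AT4G02540 (−0.55 to 0.097) and CUL1 (−0.0025 to 0.011). Of these 35 genes, 21 kept 1 sign within both replicate numbers, the 3 called ones included. The cause of the other changes was not tested. Differences in genes with few reads, such as *FT* and *TSF*, were beyond what this depth could show.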
